A study of Canis lupus familiaris with 15 samples.

Results

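The solute carriers are membrane proteins that move small molecules across the plasma membrane and the membranes of organelles, and their genes are named by family, SLC with a family number for most and SLCO for the organic anion transporters. Some families run down a gradient, others couple the movement of a nutrient to sodium, protons or a second solute. Most members of the SLC25 family sit in the inner mitochondrial membrane and exchange metabolites with the cytosol. In proliferating tumour cells the best known members supply glucose (SLC2A1), glutamine and large neutral amino acids (SLC1A5, SLC7A5 with its heavy chain SLC3A2) and cystine (SLC7A11), and release lactate (SLC16A1, SLC16A3). Members were chosen by symbol, as genes listed with a name of the form SLC, number, A, number, or with a name that begins with SLCO and a number. This gave 139 genes of 7698 gene identifiers listed in at least 1 of 3 deposited tables, with 76 of 4412 in the D17 table, 24 of 1189 in the HMPOS table and 106 of 5746 in the table of HMPOS against POS.

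RNA was sequenced from 15 libraries in 5 groups of 3. D17 and HMPOS are established canine osteosarcoma cell lines, and HMPOS was derived from POS cells and is known to metastasize readily. Parental D17, HMPOS and POS cells were the unmodified lines grown in culture, whereas extravasated D17 and HMPOS cells were sub-lines expanded in culture from tumor cell clusters that had left the vessels of transgenic zebrafish embryos, so that extravasated cells had been through injection, isolation from the embryo and regrowth before RNA was taken. POS had no extravasated group. The values are the authors' FPKM (fragments counted per length of transcript and per depth of the library), 1 for each group, a scale per length on which levels can be compared between genes. No library has a value of its own here, so the depth and the spread between libraries are unknown, no SD can be given and no test was run.

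All genes in the tables carry the authors' mark for a significant difference, and a gene that is missing may be unchanged or may not have been measured. The parental group is named norm in the tables and the extravasated group meta, and every direction in D17 and HMPOS rests on reading them so. The authors' own log2 column has the second named group over the first, parental over extravasated, so its sign is opposite to that of the ratios given here. Were the 2 names exchanged, every direction given for D17 and HMPOS would turn: as read here extravasated cells had 2390 listed genes higher and 2022 lower in D17 and 797 and 392 in HMPOS, and by the sign of the authors' column taken at face value these counts would change places. No value of a single library bears on which reading is right, so the directions in D17 and HMPOS are conditional on the names. The parental HMPOS values of the 16 members listed in both HMPOS tables differed by at most 0.00233 on the log2 scale. Of 9 osteoblast lineage genes, 4 were listed in D17, 5 in HMPOS and 5 for HMPOS against POS, COL1A1 and SPARC each time. They moved with the groups, and their summed level was 2220 FPKM after extravasation against 908 FPKM for the parental line in D17 (4 higher, 0 lower), 3120 and 1920 FPKM in HMPOS (4 higher, 1 lower), and 1930 FPKM in parental HMPOS and 5380 FPKM in POS (1 higher, 4 lower). Endothelial and leukocyte markers were not listed, apart from KDR at 0.146 FPKM in HMPOS against 1.73 FPKM in POS, and the epithelial marker EPCAM was listed in D17, at a summed epithelial level of 1.72 FPKM after extravasation against 0.431 FPKM in the parental line. The part of other cells in the results was not tested, and in such bulk samples fewer cells of a type and less RNA per cell cannot be told apart.

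To place the family in its annotation, the symbols were matched to the RefSeq gene table of the dog assembly UU_Cfam_GSD_1.0, which holds 334 protein-coding genes with such names and matched 135 of the 139 members. Of these 334 genes, 74 (22.2%) were listed in D17, beside 4231 of all 21175 protein-coding symbols, 7.19% in HMPOS, beside 5.37% of all protein-coding symbols, and 31.1% for HMPOS against POS, beside 25.9%. By class, the listed share was highest for metal ion transporters (46.9%) and mitochondrial carriers (41.3%) between HMPOS and POS.

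**Figure D1:**
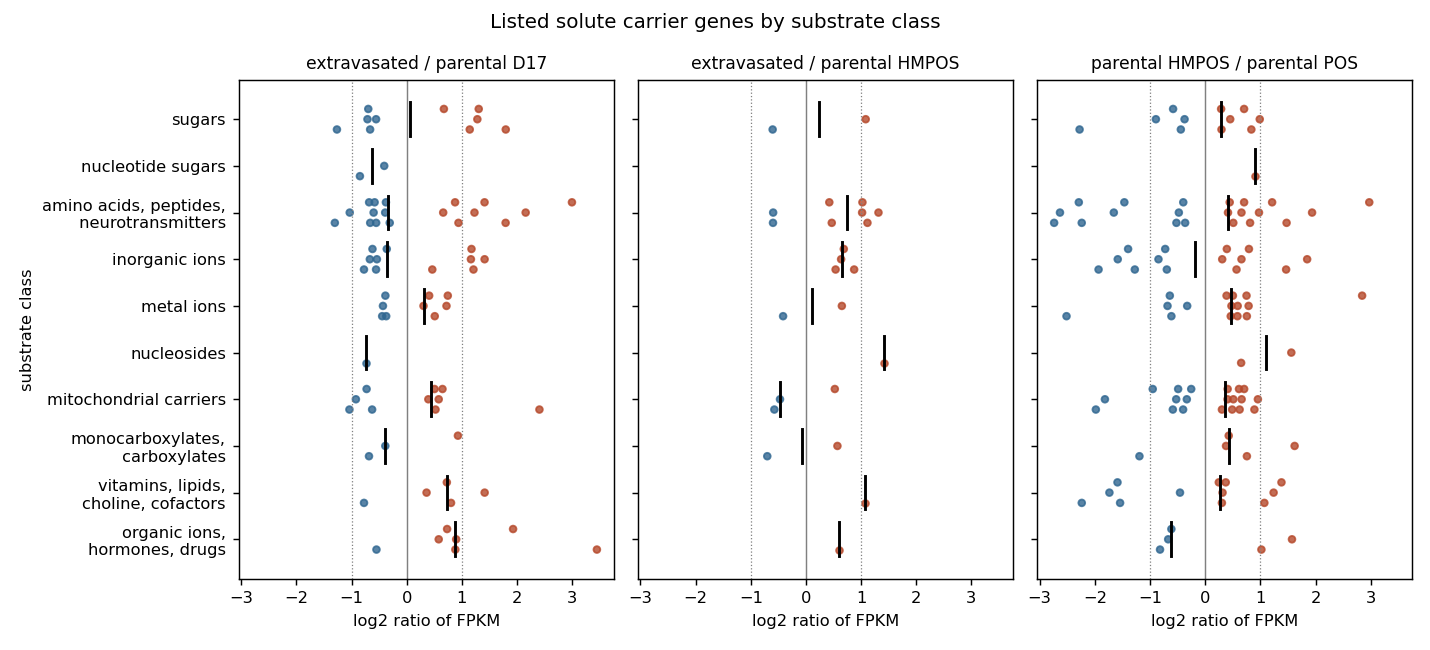
Log2 ratio of FPKM (horizontal axis) for every listed solute carrier gene, by substrate class (vertical axis), in D17, HMPOS and HMPOS against POS, with red points above and blue points below 0, a black bar at each class median and dotted lines at a 2-fold difference. Sugar, amino acid and inorganic ion transporters lie on both sides of 0 in D17 (medians 0.06, -0.34 and -0.36), whereas the 4 inorganic ion transporters of HMPOS all lie above 0, beside 67.0% of all listed genes in HMPOS.

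To ask which transporters differed between cells that had extravasated and their parental line, the D17 groups were compared first. In extravasated D17 cells 40 of the 76 members (52.6%) were higher, beside 54.2% of all listed genes, and 36 were lower, beside 45.8%. With a fold above 2, the threshold set in the study's methods, 17 members (22.4%) were higher and 4 (5.26%) lower, beside 18.3% and 8.5% of all listed genes. After centring on the median of all listed genes the balance turned, with 10 higher and 19 lower, and with a pseudocount of 1 FPKM 6 were higher and 2 lower. Both settings shift all listed genes as well, and their counts under them were not made. The members' median log2 ratio, extravasated over parental, was 0.38, beside 0.39 for all listed genes. These shares and medians of the family lay near those of all listed genes, and the differences lay in which transporters stood on each side.

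Certain amino acid transporters of the glutamate and glycine type had some of the largest ratios in favour of extravasated D17 cells. The glutamate transporter SLC1A1 went the other way, at 7.24 FPKM after extravasation against 11.6 FPKM in the parental line. SLC1A3, the glial type glutamate and aspartate transporter, was at 12.7 FPKM after extravasation against 2.85 FPKM in the parental line, a 4.46-fold difference. SLC1A7, the retinal type glutamate transporter, was at 3.48 and 0.437 FPKM, 7.98-fold higher in extravasated cells, and the files give it the same span as CPT2, so that reads of the 2 genes may not have been told apart. SLC6A9, the glycine transporter GLYT1, was at 2.58 and 0.743 FPKM, 3.47-fold higher. Of these, SLC1A3 alone was above 10 FPKM in extravasated cells. SLC38A6, of the sodium-coupled neutral amino acid family, was at 29.2 and 12.5 FPKM, 2.34-fold higher. SLC43A1, the large neutral amino acid transporter LAT3, was at 2.47 and 0.928 FPKM.

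Other amino acid transporters were lower in the same cells. SLC7A5, the large neutral amino acid exchanger LAT1, was at 24.6 FPKM after extravasation against 50.4 FPKM in the parental D17 line, 2.05-fold lower. SLC3A2, the heavy chain that SLC7A5 needs to reach the membrane, was at 31.8 and 41.7 FPKM, 1.31-fold lower. SLC1A5, the glutamine transporter ASCT2, was at 91.6 and 119 FPKM, 1.30-fold lower. All 3 were thus lower, with the largest fold for the exchanger. SLC16A10, which carries aromatic amino acids, was at 1.74 and 4.30 FPKM, 2.47-fold lower and the lowest log2 ratio of the 76 members, at -1.30. The listed members of the SLC7 family, SLC1A1, SLC3A1, SLC38A1 and SLC43A3 were lower as well. By family number, which counts the nucleobase carrier SLC43A3 here, 10 of 18 amino acid, peptide and neurotransmitter genes were lower and 8 higher. The lower share was 55.6%, beside 45.8% of all listed genes. Within the class, the 8 higher genes ran up to a log2 ratio of 3.00.

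**Figure D2:**
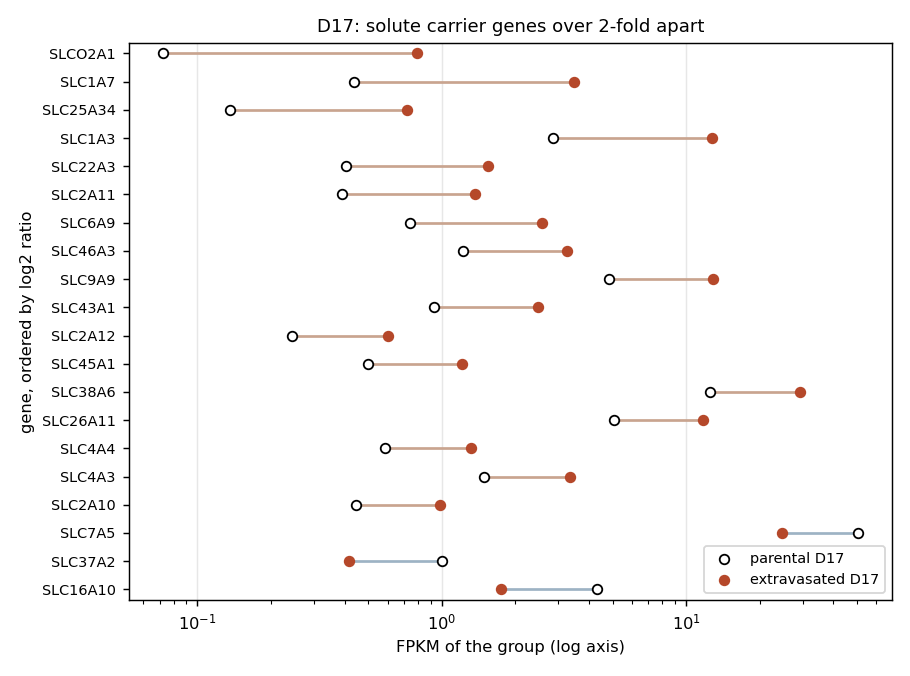
FPKM on a log axis (horizontal) of the solute carrier genes (vertical) more than 2-fold apart in D17, leaving out a gene not reported here, with filled points for extravasated and open points for parental cells and lines that join the 2 values of a gene. The 17 genes higher in extravasated cells start from parental values between 0.0725 (SLCO2A1) and 12.5 FPKM (SLC38A6), and SLC7A5, at 24.6 against 50.4 FPKM, is among the genes lower in them.

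Glucose transporters were split by isoform. SLC2A1, the basal glucose transporter GLUT1, was at 12.6 FPKM after extravasation against 20.7 FPKM in the parental D17 line, 1.64-fold lower. SLC2A3, the high-affinity transporter GLUT3, was at 21.8 and 13.7 FPKM, a log2 ratio of 0.67. In extravasated cells the order of their levels was therefore the reverse of that in parental cells. SLC2A10, SLC2A11 and SLC2A12, which encode less studied facilitative transporters, were all more than 2-fold higher in extravasated cells, with levels of at most 1.36 FPKM. SLC2A10 and SLC2A12 were below 1 FPKM in both groups. Of all listed D17 genes below 1 FPKM, 83.0% were higher in extravasated cells and 80.1% were beyond 2-fold in either direction. SLC45A1, a proton-coupled sugar transporter, was at 1.21 and 0.497 FPKM. SLC37A2, a sugar phosphate exchanger of the endoplasmic reticulum, was at 0.416 and 1.00 FPKM, and was the only listed sugar gene more than 2-fold lower.

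The nucleoside transporter SLC29A1 (ENT1) had the highest level of any member, at 1054 FPKM after extravasation against 1750.0 FPKM in the parental D17 line, 1.66-fold lower. This placed it at the 99.0th percentile of the highest group values in the table. The phosphate transporter SLC20A1 was next, at 141 and 216 FPKM, followed by the multivitamin transporter SLC5A6 at 182 and 141 FPKM and the zinc transporter SLC39A7 at 129 and 104 FPKM. Among these 4 the first pair was lower and the second pair higher in extravasated cells. SLC12A2, the sodium, potassium and chloride cotransporter NKCC1, was at 8.03 and 12.8 FPKM, and the lactate transporter SLC16A1 at 55.8 and 72.9 FPKM.

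Of 11 inorganic ion transporters in D17, extravasated cells had 5 higher (45.5%, beside 54.2% of all listed genes) and 6 lower, and relatives within a family differed in direction. SLC9A9, a sodium and proton exchanger of endosomes, was at 12.8 FPKM after extravasation against 4.82 FPKM in the parental line. SLC26A11, a sulfate and anion transporter, was at 11.7 and 5.06 FPKM. SLC4A3, an anion exchanger, was at 3.34 and 1.49 FPKM, and SLC4A4, a sodium bicarbonate cotransporter, at 1.32 and 0.583 FPKM. These 4 were more than 2-fold higher, and the proton exchanger SLC9A5 was higher by a smaller fold, at 3.98 and 2.88 FPKM. The sulfate transporter SLC26A2, at 3.24 and 5.54 FPKM, the anion exchanger SLC26A6, at 7.95 and 10.2 FPKM, and SLC4A11, at 7.48 and 10.9 FPKM and with the same span in the file as ITPA, were lower by less than 2-fold, as were 3 others. Of 9 metal ion transporters 5 were higher (55.6%, beside 54.2% of all listed genes) and 4 lower, all within 2-fold, with log2 ratios from -0.45 to 0.75. The iron exporter SLC40A1 (ferroportin) was at 6.85 and 8.95 FPKM.

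Among 10 mitochondrial carriers, extravasated D17 cells had 6 at a higher and 4 at a lower level, with a median log2 ratio of 0.45. All listed genes had 54.2% higher and a median of 0.39. SLC25A38, which brings glycine into mitochondria for heme synthesis, was at 30.7 FPKM after extravasation against 58.2 FPKM in the parental line, 1.89-fold lower. SLC25A11, the oxoglutarate carrier and the most abundant listed carrier, was at 81.3 and 126 FPKM. The citrate carrier SLC25A1 and SLC25A36 were on the other side, at 85.7 and 59.7 FPKM and at 67.1 and 42.8 FPKM. SLC19A2, a thiamine transporter of the plasma membrane, was at 2.33 and 3.99 FPKM, lower in extravasated cells.

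Transporters of organic ions, hormones and drugs were higher in extravasated D17 cells for 6 of 7 genes, with a median log2 ratio of 0.88. Of all listed genes 54.2% were higher, with a median of 0.39. The class had low levels, with a median higher group value of 2.22 FPKM. From 1 to 10 FPKM, 66.2% of all listed genes were higher, with a median of 0.62. SLCO2A1, the prostaglandin transporter, was at 0.792 and 0.0725 FPKM, 10.9-fold higher and the largest fold among the members, though below 1 FPKM in both groups. SLC22A3, the organic cation transporter OCT3, was at 1.54 and 0.405 FPKM, and SLC22A17, a receptor for the siderophore carrier lipocalin, was the most abundant of the class at 44.8 and 26.96 FPKM. SLC46A3, a transporter of lysosomes, was at 3.26 and 1.22 FPKM, and both nucleotide sugar transporters, SLC35A5 at 14.5 and 26.2 FPKM and SLC35A4, were lower. Depth is unknown, and the values below 1 FPKM are the least certain.

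The direction in D17 went with the level of the gene. Of the 27 members with a higher group value from 1 to 10 FPKM, 66.7% were higher in extravasated cells, against 42.1% of the 38 from 10 to 100 FPKM and 33.3% of the 6 at 100 FPKM or more. All listed genes had shares of 66.2%, 46.7% and 49.5% in the same ranges. At 100 FPKM or more, 0 of the 6 members and 20.1% of all listed genes were beyond 2-fold. The part of this relation in the results by class was not tested.

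In HMPOS the list was shorter and lay more to the side of extravasated cells. In extravasated HMPOS cells 17 of the 24 members (70.8%) were higher, beside 67.0% of all listed genes, and 7 were lower. With a fold above 2, 7 members (29.2%) were higher, beside 20.5% of all listed genes, and 0 were lower, beside 4.79%. This balance depended on the scale, and after centring on the median of all listed genes 0 were higher and 6 lower, while a pseudocount of 1 FPKM left 1 higher. All listed genes shift in the same way and were not counted under these settings. The median log2 ratio was 0.59 for the members and 0.58 for all listed genes, and the share of higher members was near that of all listed genes.

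SLC29A4, a polyspecific transporter of monoamines that belongs to the nucleoside transporter family, had the largest ratio, at 11.9 FPKM after extravasation against 4.46 FPKM in the parental HMPOS line, 2.66-fold higher, at a span that the files also give to TNRC18. SLC17A7, the vesicular glutamate transporter VGLUT1, was at 1.20 and 0.481 FPKM, 2.49-fold higher. SLC7A11, the cystine and glutamate exchanger xCT, was at 4.52 and 2.09 FPKM, 2.17-fold higher. Both SLC17A7 and SLC7A11 were listed in the HMPOS table alone. SLC45A1 was at 10.7 and 5.06 FPKM, SLC27A3, a very long-chain acyl-CoA synthetase of the fatty acid transport family, at 7.73 and 3.66 FPKM, and the amino acid transporters SLC6A9 and SLC43A1 at 8.59 and 4.24 FPKM and at 1.25 and 0.613 FPKM. These complete the 7 genes beyond 2-fold, of which 4 carry amino acids.

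Below 2-fold, the 8 listed amino acid genes included 2 more that were higher, SLC7A5 at 99.6 and 74.3 FPKM and SLC1A4, the neutral amino acid exchanger ASCT1, at 13.6 and 9.83 FPKM. The 2 lower genes were the taurine transporter SLC6A6, at 8.41 and 12.7 FPKM, and SLC36A4, at 6.24 and 9.44 FPKM. At any fold 75.0% of the class was higher, beside 67.0% of all listed genes. SLC7A5 had the highest level of all HMPOS members. The lactate exporter SLC16A3 (MCT4) was at 15.9 FPKM after extravasation against 10.7 FPKM in the parental line, whereas the glucose transporter SLC2A1 was at 25.02 and 38.02 FPKM, 1.52-fold lower. The 4 inorganic ion transporters, SLC9A5, SLC26A11, SLC4A3 and SLC12A7, were all higher, with log2 ratios from 0.54 to 0.87, beside 67.0% of all listed genes higher. Of 3 mitochondrial carriers, SLC25A16 and SLC25A14 were lower and SLC25A29 higher, and SLC25A16 was the most abundant, at 47.6 and 65.9 FPKM. The lowest log2 ratio, -0.70, belonged to SLC16A9, at 0.810 and 1.32 FPKM.

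**Figure D3:**
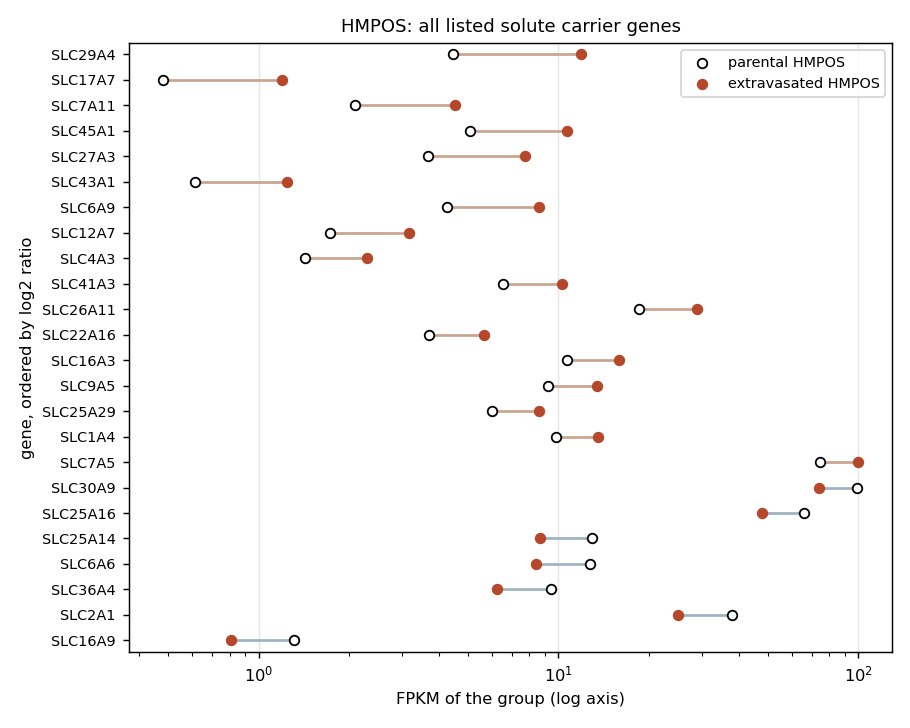
FPKM on a log axis (horizontal) of all 24 solute carrier genes listed for HMPOS (vertical), with filled points for extravasated and open points for parental cells and lines that join the 2 values of a gene. The 17 upper genes are higher in extravasated cells, led by SLC29A4 at 11.9 against 4.46 FPKM, and the 7 lower genes include SLC2A1 and SLC30A9.

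The D17 and HMPOS comparisons share no library, so the members listed in both could be set against each other. There were 10, which is 13.2% of the D17 members and 41.7% of the HMPOS members, beside 13.9% and 51.6% for all listed symbols. In both lines 6 were higher in extravasated cells, 2 were lower in both, and 2 differed in direction. Among all 614 symbols listed in both, 382 were higher in both, 153 lower in both and 79 opposite, of which 46 were higher in D17 alone and 33 in HMPOS alone.

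The 6 genes higher in extravasated cells of both lines were SLC6A9, SLC43A1, SLC45A1, SLC26A11, SLC4A3 and SLC9A5, which is a sodium and proton exchanger. SLC6A9, SLC43A1 and SLC45A1 were beyond 2-fold in both, with log2 ratios of 1.79 and 1.02, 1.41 and 1.02, and 1.28 and 1.08 in D17 and HMPOS. These were 3 of the 10 members listed in both, beside 80 of all 614 symbols listed in both. In HMPOS their folds were 2.03, 2.03 and 2.12, close to the threshold. A pseudocount of 1 FPKM left 1 HMPOS member higher beyond 2-fold. Thus 3 of the 6 carry ions and the other 3 carry glycine, large neutral amino acids and sugar. Their levels differed between the lines, and SLC45A1 was at 1.21 FPKM in extravasated D17 and 10.7 FPKM in extravasated HMPOS cells, values of separately made tables.

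SLC2A1 and the zinc transporter SLC30A9 were lower in extravasated cells of both lines by less than 2-fold. SLC30A9 was at 53.5 FPKM after extravasation against 72.8 FPKM in the parental D17 line, and at 74.2 and 98.9 FPKM in HMPOS, log2 ratios of -0.45 and -0.41. SLC2A1 had log2 ratios of -0.71 and -0.60. SLC7A5 and SLC6A6 went opposite ways. SLC7A5 had a log2 ratio of -1.03 in D17 and 0.42 in HMPOS. SLC6A6 was at 9.20 FPKM after extravasation against 5.01 FPKM in the parental D17 line, a log2 ratio of 0.88, beside -0.59 in HMPOS. The difference between the lines was not tested.

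**Figure D4:**
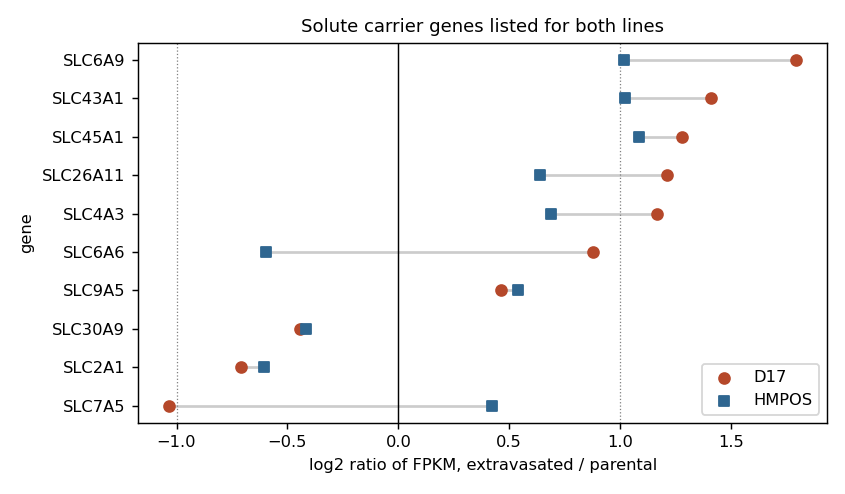
Log2 ratio of FPKM, extravasated over parental cells (horizontal), for the 10 solute carrier genes listed in both lines (vertical), with circles for D17, squares for HMPOS and dotted lines at a 2-fold difference. SLC6A9, SLC43A1 and SLC45A1 lie beyond 2-fold in both lines, in HMPOS close to the line, and SLC6A6 and SLC7A5 have their points on opposite sides of 0.

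The third table set parental HMPOS against parental POS, the line it came from, with no zebrafish passage in either. Of 106 members 61 (57.5%) were higher in HMPOS and 45 lower, beside 47.7% and 52.3% of all listed genes. With a fold above 2, 14 members (13.2%) were higher, beside 8.49% of all listed genes, and 19 (17.9%) were lower, beside 19.1%. After centring on the median of all listed genes the balance turned, with 29 higher and 17 lower, a shift that applies to every listed gene. Such counts were not made for all listed genes. The median log2 ratio of HMPOS over POS was 0.38 for the members and -0.31 for all listed genes, while the mean of the members was -0.0050. As in D17 the direction went with the level, but the relation ran the other way. Of the 40 members from 1 to 10 FPKM 37.5% were higher in HMPOS, beside 34.1% of all listed genes. From 10 to 100 FPKM 70.2% of the 57 members were higher in HMPOS, beside 52.7% of all listed genes.

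The metal ion transporter SLC11A1 (NRAMP1), known from macrophage phagosomes, was at 38.8 FPKM in HMPOS against 5.40 FPKM in POS, 7.19-fold higher. SLC15A1, the proton-coupled peptide transporter PEPT1, was at 2.91 and 0.370 FPKM, 7.86-fold higher and the largest fold in that direction. SLC8A3, a sodium and calcium exchanger, was at 27.2 and 7.54 FPKM, 3.60-fold higher. Of these 3, SLC11A1 and SLC8A3 were above 10 FPKM in HMPOS. The lactate exporter SLC16A3 was at 10.7 and 3.47 FPKM, 3.08-fold higher, and SLC7A5 at 74.2 and 26.7 FPKM, 2.78-fold higher. SLC29A4 was at 4.45 and 1.51 FPKM. The file gives it the same span as TNRC18, which was lower in HMPOS, and reads of overlapping genes may not have been told apart.

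Of the well-known glucose, glutamine, large neutral amino acid and lactate transporters named at the start, all 6 that were listed were higher in HMPOS. Of all members 57.5% were higher, of members from 10 to 100 FPKM 70.2%, and of all listed genes 47.7%. This short list was chosen with earlier results of these data known. SLC2A1 was at 37.99 FPKM in HMPOS against 19.1 FPKM in POS, 1.98-fold higher. SLC1A5 was at 86.9 and 53.3 FPKM, SLC3A2 at 41.5 and 31.2 FPKM and SLC16A1 at 93.8 and 69.8 FPKM. With SLC7A5 and SLC16A3 they ranged from 1.33-fold for SLC3A2 to 3.08-fold for SLC16A3, and the cystine exchanger SLC7A11 was not listed. SLC29A1 was again the most abundant member, at 1349 FPKM in HMPOS against 859 FPKM in POS. SLC27A4, a fatty acid transport protein, was at 39.6 and 18.8 FPKM, and the thiamine transporter SLC19A2 at 7.54 and 3.19 FPKM. The remaining genes more than 2-fold higher were SLC24A5, SLC10A4, SLC36A2, SLC17A8, SLC22A16 and SLC22A23, with levels in HMPOS from 0.916 to 7.86 FPKM.

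**Figure D5:**
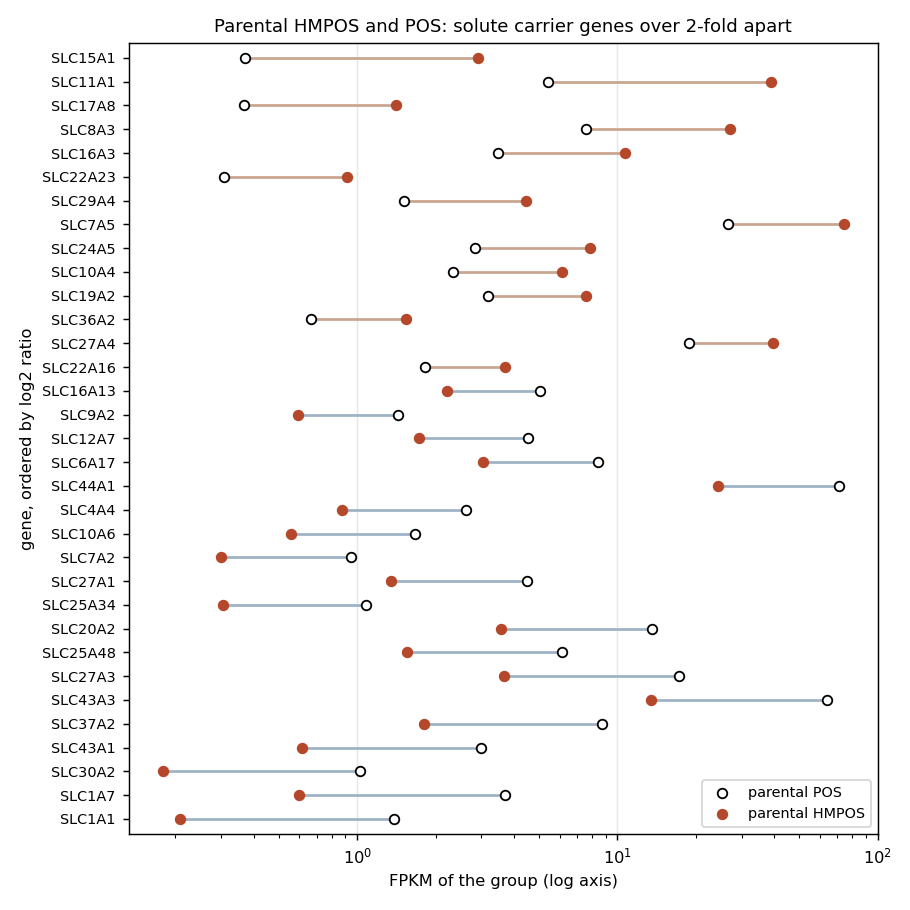
FPKM on a log axis (horizontal) of the 33 solute carrier genes (vertical) more than 2-fold apart between parental HMPOS (filled points) and parental POS (open points), with lines that join the 2 values of a gene. SLC7A5 and SLC27A4, at 74.2 and 39.6 FPKM in HMPOS, are the most abundant of the 14 genes higher in HMPOS, and SLC44A1 and SLC43A3, at 70.9 and 63.6 FPKM in POS, of the 19 genes lower in HMPOS.

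Among the 19 genes more than 2-fold lower in HMPOS, the choline transporter SLC44A1 was at 24.3 FPKM in HMPOS against 70.9 FPKM in POS, 2.91-fold lower. SLC43A3, which belongs to an amino acid transporter family and is known to carry purine nucleobases, was at 13.5 and 63.6 FPKM, 4.72-fold lower. SLC27A3 was at 3.66 and 17.3 FPKM, 4.72-fold lower, opposite to its relative SLC27A4. These 3 were the most abundant of the 19. SLC20A2, a phosphate transporter that serves as a viral receptor, was at 3.56 and 13.6 FPKM, and SLC37A2 at 1.80 and 8.74 FPKM. The glutamate transporters SLC1A1 and SLC1A7 had the lowest log2 ratios, -2.74 and -2.63, at 0.208 and 1.39 FPKM and at 0.597 and 3.70 FPKM, and SLC1A3 was lower by a smaller fold, at 97.3 and 139.7 FPKM. In the file SLC1A7 has the same span as CPT2, whose direction was the opposite. The other 12 were SLC30A2, SLC43A1, SLC25A48, SLC25A34, SLC27A1, SLC7A2, SLC10A6, SLC4A4, SLC6A17, SLC12A7, SLC9A2 and SLC16A13, none above 10 FPKM in either line.

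The 20 genes of the SLC25 family, classed by name as mitochondrial carriers, had a median log2 ratio of 0.35 between HMPOS and POS. In HMPOS 11 were higher and 9 lower, and only SLC25A48 and SLC25A34 were beyond 2-fold. All listed genes had 47.7% higher and a median of -0.31. The ADP and ATP exchangers, which bring ATP out of mitochondria, were split. SLC25A6 was at 729 FPKM in HMPOS against 1024 FPKM in POS, and SLC25A5 at 238 and 154 FPKM. Reads of these near-identical paralogs may have been shared between them. Zinc transporters that bring zinc into the cytosol, the SLC39 family, were higher in HMPOS for 4 of 5 genes, among them SLC39A1 at 121.9 and 93.2 FPKM, SLC39A6 at 106.9 and 61.9 FPKM and SLC39A14 at 44.9 and 29.95 FPKM. The SLC30 family, most members of which move zinc the other way, was likewise higher for 4 of 5 genes. Of all listed genes 47.7% were higher, and 52.7% of those from 10 to 100 FPKM. The iron exporter SLC40A1 was at 9.45 and 14.4 FPKM.

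A total of 7 members were listed in all 3 tables, namely SLC2A1, SLC30A9, SLC43A1, SLC45A1, SLC4A3, SLC6A6 and SLC7A5. The 2 HMPOS tables share the parental HMPOS libraries, so their values are given side by side alone. SLC43A1 was at 1.25 FPKM in extravasated HMPOS, 0.613 FPKM in parental HMPOS and 3.00 FPKM in POS cells. SLC45A1 was at 10.7, 5.06 and 6.55 FPKM in these groups, and SLC4A3 at 2.30, 1.43 and 2.57 FPKM. For these 3 genes parental HMPOS held the lowest value. SLC2A1 was at 25.02, 38.02 and 19.1 FPKM and SLC30A9 at 74.2, 98.9 and 58.5 FPKM, with the highest value in parental HMPOS. The shared libraries enter both ratios, which favours an extreme value in parental HMPOS among genes listed for both. How often this held among all genes listed for both was not computed. SLC7A5 was at 99.6, 74.3 and 26.7 FPKM, and SLC6A6 at 8.41, 12.7 and 17.7 FPKM, so that these 2 followed opposite orders across the groups.

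Of 38 partner, regulator and neighbouring enzyme genes of these pathways, 15 were listed in D17, where extravasated cells had 9 higher and 6 lower, beside 54.2% of all listed genes higher, 9 in HMPOS with 4 higher and 5 lower, beside 67.0% higher, and 19 for HMPOS against POS with 11 higher and 8 lower in HMPOS, beside 47.7% higher. Of all 21175 protein-coding symbols, 4231, 1138 and 5492 were listed in these tables. TXNIP, which promotes the removal of glucose transporters from the membrane, was at 150.0 FPKM after extravasation against 24.7 FPKM in the parental D17 line, at 81.4 and 59.5 FPKM in HMPOS. In both lines its direction was opposite to that of SLC2A1, but SLC2A3, SLC2A10, SLC2A11 and SLC2A12 were higher with it in D17. TXNIP was at 59.5 FPKM in parental HMPOS and 154 FPKM in POS cells. The regulators ARRDC3 and ARRDC4 were both higher in extravasated D17 cells. Between HMPOS and POS, ARRDC3 was lower in HMPOS and ARRDC4 higher, as was SLC2A1. A link between these RNA levels was not tested. CA9, a carbonic anhydrase of the cell surface, was at 8.65 and 0.674 FPKM in D17 and at 83.5 and 47.5 FPKM in HMPOS, higher in extravasated cells of both lines. TFRC, the transferrin receptor for iron uptake, was at 24.4 and 62.4 FPKM in D17 and at 132 FPKM in parental HMPOS and 60.5 FPKM in POS. The zinc-binding metallothionein MT2A was at 1109 and 127 FPKM in D17, 3.13 higher on the log2 scale. GCLC and GCLM, the subunits of the enzyme that uses cysteine for glutathione, were lower in extravasated cells of both lines, with log2 ratios of -0.50 and -0.38 in D17 and -0.54 and -0.50 in HMPOS, where SLC7A11 was higher. ATF4, a regulator of amino acid supply genes, was listed in HMPOS at 342 and 255 FPKM.

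The positions of the members are those of the files, on the build CanFam3.1 that the submitters' processing notes name. SLC29A1 (ENSCAFG00000001981) lies on chromosome 12 from 12638121 to 12664676, SLC2A1 (ENSCAFG00000002500) on chromosome 15 from 463916 to 494693, SLC7A5 (ENSCAFG00000019901) on chromosome 5 from 65312984 to 65346118 and SLC1A3 (ENSCAFG00000018704) on chromosome 4 from 71935575 to 72077309. SLC43A1 (ENSCAFG00000007862) and SLC43A3 (ENSCAFG00000007878) are relatives on chromosome 18, from 38653739 to 38675538 and from 38723538 to 38744500, with a gap of 48000 bases. Between HMPOS and POS this pair had log2 ratios of -2.29 and -2.24, whereas in D17 they were 1.41 and -0.58. Whether the first position counts from 0 is not given in the files.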

How the data were processed

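The labels name Trimmomatic 0.38, TopHat2, Cufflinks, Cuffdiff and the build CanFam3.1, whereas the article's methods name STAR, voom and limma. The tables have Cuffdiff's columns. The authors deposited 1 FPKM value per group in each of 3 tables, combined over the 3 libraries of the group, and 0 rows lacked their mark of significance. Their log2 ratios, test statistics, p-values and q-values were not used. Columns of single samples left unused numbered 0. Depth and precision are unknown.

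Groups were matched to columns by the names in the tables. Log2 ratios of FPKM were computed without a pseudocount, and 0 members had a value of 0. Counts used a fold above 2. Listed genes of the same table served as background. Counting was tested on simulated tables. Python 3.11.15, numpy 2.4.6, pandas 2.3.3 and matplotlib 3.10.9 were used.

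Substrate classes followed family numbers. Members and lists were chosen with earlier results of these data known. The genes named were members beyond 2-fold with at least 1 FPKM in either group, those in all 3 tables or opposite between the lines, the most abundant of each class, and a short list of well-known transporters. Others were named to complete a class after their values were seen. A gene that the rule names is not reported here. Sequences were not used here.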

Additional observations from a re-analysis of the deposited data

How the results depend on the processing

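Without the fold threshold, 40 members were higher and 36 lower after extravasation in D17, 17 and 7 in HMPOS, and 61 and 45 in HMPOS against POS. With a fold over 1.5 these counts were 30 and 20, 12 and 4, and 36 and 31, and 1 member was lower in extravasated cells of both lines. With a fold over 2, chosen after seeing the data, 3 members were higher and 0 lower in both lines, beside 80 higher of all 614 symbols listed in both. A pseudocount of 1 FPKM left 6 higher and 2 lower beyond 2-fold in D17, 1 higher in HMPOS and 11 lower in HMPOS than POS. Centring on the median of all listed genes gave 10 higher and 19 lower in D17, 0 higher and 6 lower in HMPOS, and 29 higher in HMPOS than POS. Since a gene had to pass the test of the authors to be listed, this median is no neutral baseline. Counts of all listed genes after centring or with a pseudocount were not made.

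The median log2 ratio of the members was 0.30 in D17 among members that reached 1 FPKM in either group, 0.36 with a pseudocount of 1 and -0.0092 after centring, and the mean was 0.27. In HMPOS it was 0.49 and 0.58 with pseudocounts of 1 and 0.1 and 0.0053 after centring, and the mean was 0.42. For HMPOS against POS it was 0.33 and 0.37 with these pseudocounts and 0.68 after centring, and the mean was -0.0050. The cause of the reversals in sign was not tested beyond this. No other alternative moved a count by more than 1.5 times.

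No paired analysis was possible because single libraries have no values here, and for this reason leaving out a replicate was not run either.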

Other observations

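Solute carrier genes with a name outside the pattern, mostly of the SLC35 family, numbered 7 among the listed genes of D17, 0 for HMPOS and 13 between HMPOS and POS. In D17 the most abundant were SLC35F2 at 53.4 FPKM after extravasation against 66.4 FPKM in the parental line and SLC35D1 at 50.8 and 25.6 FPKM, and SLC8B1, a mitochondrial sodium and calcium exchanger, was at 13.6 and 5.14 FPKM. Between parental HMPOS and POS 8 were higher and 5 lower in HMPOS. SLC35B1, SLC35B2, SLC35B3, SLC35B4, SLC35C1 and SLC35C2 were all higher, with log2 ratios from 0.38 to 0.62, while SLC35F3 was at 0.0349 FPKM in HMPOS against 0.915 FPKM in POS.

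Of the pairs of members within 500000 bases of each other, 1 of 4 shared a direction in D17 and 7 of 9 between HMPOS and POS. The share among all neighbouring listed genes was not computed, so these counts do not set the members apart. In D17, SLC5A6 and SLC30A3 on chromosome 17 were both higher in extravasated cells, with log2 ratios of 0.36 and 0.75, whereas SLC45A3 and SLC41A1 on chromosome 38 had ratios of -0.70 and 0.51. Between HMPOS and POS the latter pair had ratios of -0.58 and -0.68, and SLC38A2 and SLC38A1 on chromosome 27 had ratios of 0.44 and 0.81. SLC39A1 and SLC27A3 on chromosome 7 had ratios of 0.39 and -2.24.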
